A study of Homo sapiens with 28 samples.

Results

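This is the response of LNCaP cells to the synthetic androgen R1881 over 24 h, read across all genes. It rests on 6 of the 28 libraries of the series, 3 from cells given R1881 at 0.1 nM and 3 from cells given vehicle, chosen by their labels alone. LNCaP is a human prostate cancer line of luminal type that responds to androgen. All the cells had been kept for 72 h in charcoal-stripped serum, from which charcoal has taken up most steroids, and then received the androgen or, as vehicle, 0.1% DMSO, which the labels give for the vehicle group alone. The other 22 libraries come from cells that also received a CDK8/19 inhibitor, or from an experiment of 72 h with R1881 at 1 nM, and serve here only for the shared estimate of spread and for 1 comparison at the end. R1881, also called methyltrienolone, is a ligand that cells metabolise little. Total counts of the 6 libraries ranged from 10219140 to 33809419, and vehicle replicate 3 was the deepest, with the others at or under 13695671. Nothing in the labels says whether replicates were separate cultures, so p-values measure the spread between these libraries only.

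Androgens act through a steroid receptor, a transcription factor that HSP90 chaperones hold ready in the cytoplasm, and the bound receptor enters the nucleus and attaches to androgen response elements. In luminal prostate cells it drives secretory genes such as the kallikreins, lipid and polyamine synthesis and, in many prostate cancers, cell division, and it holds down genes that would otherwise rise when androgen is absent. Receptor-bound elements lie mostly far from start sites, in enhancers. The test throughout is edgeR's quasi-likelihood test with Benjamini-Hochberg adjustment over all genes tested (FDR), and values after ± are Wald SEs of a log2 fold change unless given as SD. Levels below are in CPM, the reads of a gene for each 1e6 reads of the library after TMM scaling, and CPM per kilobase of exon where levels of different genes are compared.

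The labelled cell type was checked first against its markers. The luminal markers KRT8, KRT18, FOXA1, HOXB13, EPCAM and CDH1 were at 1 CPM or more in both groups. The basal markers KRT5, KRT14, KRT15 and TP63 had 0 counts in every vehicle library and summed to at most 0.441 CPM with R1881. Among fibroblast markers COL1A2, DCN and DES were at 0, while COL3A1 and COL1A1 were measured and fell, with log2 fold changes of -1.76 and -0.67, and PDGFRB, at a mean of 1 CPM or more in both groups, was not called (0.21). The summed level of the fibroblast list was 27.9 to 31 CPM with vehicle and 16.3 to 18.1 CPM with R1881. The part of other cells in the results was not tested. The immune list summed to at most 1.56 CPM in any library, and the endothelial list, in which VWF rose (log2 fold change 1.32 ± 0.26, FDR 4.75e-05), to 0.988 to 1.19 CPM with vehicle and 2.48 to 2.94 CPM with R1881. In bulk RNA, fewer cells of a type and less RNA per cell cannot be told apart.

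R1881 changed 3028 of 15963 genes tested (19.0%), raising 1566 (9.81%) and lowering 1462 (9.16%). A call required both an FDR below 0.01 and more than a 1.5-fold change. The median log2 fold change over all genes was -0.016. A further 4682 genes (29.33%) passed the FDR but not the fold limit, and the median SE over all genes was 0.07 on the log2 scale. For 2995 of the called genes (98.91%) no R1881 library overlapped any vehicle library, as also held for 62.02% of all genes. The common biological coefficient of variation of the fit was 2.72%.

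Larger changes were mostly upward. Of the called genes 43 higher and 49 lower were at or under 3 counts in every library of one group, and these were counted at their bound, the fold against a floor of 3 counts. Changes over 16-fold then numbered 31 upward against 2 downward, and 4- to 16-fold changes 298 against 136, whereas in the range from 1.5- to 2-fold 697 genes were higher and 773 lower. Calls of lower genes took a larger share at low levels. Of 5 equal bins of genes by mean level, the 2 lowest (0.472 to 13.4 CPM) had 15.3% and 15.9% called lower and the 2 highest 3.67% and 3.73%, whereas the share called higher ran from 7.64% in the fourth bin to 12.6% in the second. Long non-coding RNAs were called lower in 14.14% and higher in 5.74% of 1811 tested, and protein-coding genes in 8.55% and 10.61% of 12794. The levels of these classes differ, and the part of level in that contrast was not tested.

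**Figure D1:**
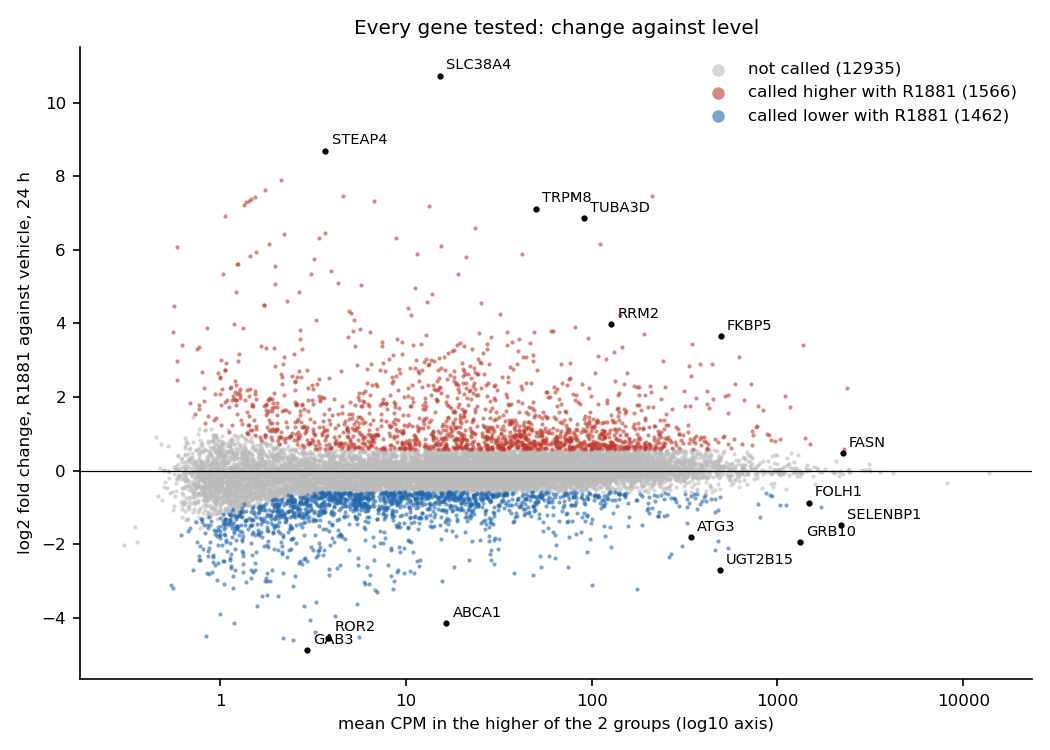
Log2 fold change of R1881 against vehicle at 24 h for each of 15963 genes (vertical axis) against its mean CPM in the higher group (horizontal log axis), with genes called higher in red, called lower in blue and the rest in grey. The lowest point among genes over 10 CPM is ABCA1, while FASN, an abundant gene, lies at 0.48, under the fold limit. Fitted values of genes with 0 counts in every vehicle library depend on the prior count and give no size.

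In summed level the genes called higher held together 52191 ± 197 CPM with vehicle and 113818 ± 714 CPM with R1881 (SD, n = 3), and those called lower 55809 ± 301 and 28059 ± 732 CPM. These genes were picked on the same contrast, so the sums describe its scale and test nothing. The 8 largest gains made 11.95% of the summed gain and the 8 largest losses 20.99% of the summed loss.

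Large gains in level were those of enzymes, a transporter and cytoskeletal genes. SORD (chr15:45023104-45077185, GRCh38), which makes fructose from sorbitol, had 346, 358 and 349 CPM with vehicle and 1169.5, 1213 and 1140.0 CPM with R1881, a log2 fold change of 1.74 ± 0.03 (SE, FDR 7.36e-29). ABHD2, a lipid hydrolase, had 273, 266 and 272 CPM with vehicle and 1098, 1049 and 1143 CPM with R1881, a log2 fold change of 2.02 ± 0.04 (SE, FDR 1.06e-29). In both genes every R1881 library lay above every vehicle library. ABCC4, an exporter of cyclic nucleotides and prostaglandins, rose from 141 to 718 CPM (log2 fold change 2.35 ± 0.03, FDR 1.24e-32). CKB, the brain-type creatine kinase, was already abundant and rose by 0.60 on the log2 scale, close to the fold limit. Its call was lost when libraries were scaled by their totals and without R1881 replicate 2. TUBB, a beta-tubulin, and LIMCH1, an activator of non-muscle myosin, rose by 0.71 and 0.88.

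Among losses SELENBP1, a selenium-binding methanethiol oxidase, came first. It had 2172, 2189 and 2199 CPM with vehicle and 774, 784 and 781 CPM with R1881, a log2 fold change of -1.49 ± 0.03 (SE, FDR 1.17e-27). GRB10, an adaptor that restrains insulin and IGF receptors, had 1330.4, 1321 and 1322 CPM with vehicle and 348, 334 and 352 CPM with R1881 (log2 fold change -1.94 ± 0.04, FDR 4.38e-29). FOLH1, which encodes prostate-specific membrane antigen, had 1453, 1494 and 1466 CPM with vehicle and 815, 783 and 815 CPM with R1881 (log2 fold change -0.87 ± 0.03, FDR 3.59e-21). Per kilobase of exon it went from 385 to 210.4 CPM, and it thus remained among abundant genes. MANEA, a Golgi mannosidase, fell by 2.10, SESN3, a stress-responsive inhibitor of TORC1 signalling, by 1.27, and the sialyltransferase ST3GAL1, the copine CPNE3 and PRUNE2 by 0.94, 0.95 and 0.98 on the log2 scale. PRUNE2 lies across the strand of PCA3, a prostate lncRNA that also fell (-1.33, a call lost without R1881 replicate 1), and since the strand setting of the counting is not stated their reads may not be told apart.

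The 12 highest and 12 lowest fold changes, leaving out KLK2, KLK3 and CHRNA2, were genes of low or no expression in one group. SLC38A4, an amino acid transporter, had 0 counts in all vehicle libraries and 15.8, 16 and 13.9 CPM with R1881, at least 54.1-fold higher against a floor of 3 counts in the shallowest vehicle library. PLA2G5 and PLA2G4E, both phospholipases A2, PNLIP, the pancreatic lipase, and SLC26A3, a chloride and bicarbonate exchanger, also had 0 counts in every vehicle library and were at least 6.22-, 3.76-, 5.06- and 5.24-fold higher. STEAP4, a metalloreductase, was at least 13.1-fold higher, the kinase ALPK2 at least 24-fold and the lncRNA LINC00844 at least 16.2-fold.

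Other genes of these 12 reached higher levels. TUBA3D, an alpha-tubulin best known from testis, had 0.751, 0.635 and 0.825 CPM with vehicle and 86.3, 96.5 and 89.1 CPM with R1881, a log2 fold change of 6.87 ± 0.21 (SE, FDR 4.53e-32). It has near-identical copies, among which TUBA3E also rose (log2 fold change 5.90 ± 0.42, FDR 7.98e-21), and reads may have been shared between them. TRPM8, the cold and menthol channel that is a known marker of androgen action in prostate, had 0.376, 0.212 and 0.398 CPM with vehicle and 50.1, 48.3 and 51.4 CPM with R1881 (log2 fold change 7.12 ± 0.29, FDR 1.23e-29). ST6GALNAC1, the sialyltransferase that makes the sialyl-Tn antigen, had 0, 0.141 and 0.341 CPM with vehicle and 26.3, 23 and 21.4 CPM with R1881 (log2 fold change 6.61 ± 0.41, FDR 9.88e-24). CTNNA2, the neural alpha-catenin, had 0, 0.0706 and 0.114 CPM with vehicle and 13, 14.4 and 12.7 CPM with R1881 (log2 fold change 7.18 ± 0.67, FDR 3.21e-21).

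The strongest falls included receptors and regulators of signalling. ABCA1, the cholesterol efflux pump, had the highest vehicle level among the 12 lowest fold changes, with 15.8, 17.8 and 16 CPM with vehicle and 1.01, 0.882 and 0.864 CPM with R1881, a log2 fold change of -4.15 ± 0.24 (SE, FDR 2.81e-21). ROR2, a Wnt receptor kinase, was at least 13.8-fold lower, PTPRB, a receptor phosphatase, at least 11.7-fold, GAB3, a docking protein, at least 10.7-fold, MATN2, a matrix protein, at least 11.1-fold, and PGM5, a phosphoglucomutase relative of cell junctions, at least 9.01-fold. VAV3, a guanine exchange factor for small GTPases, had 3.19, 3.46 and 3.21 CPM with vehicle and 0.184, 0.529 and 0.0864 CPM with R1881 (log2 fold change -3.58 ± 0.58, FDR 3.96e-09). PLD1, SCUBE2, LRRC31 and EPB41L4A fell by 3.67 ± 0.60, 3.62 ± 0.44, 3.96 ± 0.48 and 4.51 ± 0.54, to means of 0.209, 0.441, 0.268 and 0.238 CPM with R1881. All of these means but that of SCUBE2 lay under 0.276 CPM, 3 counts in the shallowest R1881 library, so those sizes are uncertain. LHX9 was at least 4.32-fold lower.

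**Figure D2:**
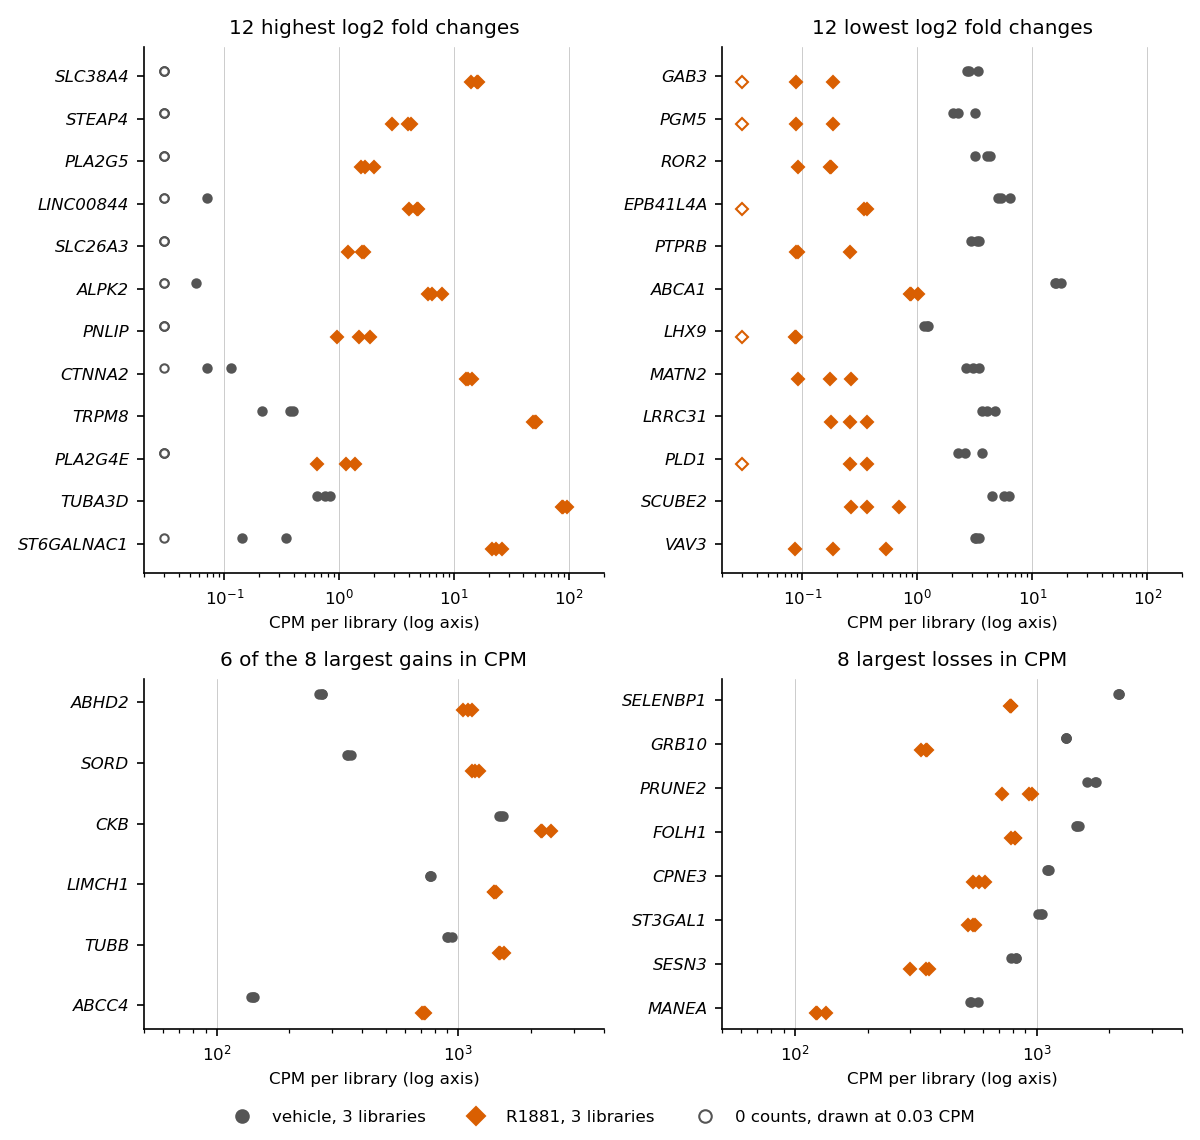
CPM in each of the 3 vehicle libraries (grey circles) and the 3 R1881 libraries (orange diamonds), on log axes, for the 12 highest and 12 lowest log2 fold changes 6 of the 8 largest gains and the 8 largest losses in level; open symbols are 0 counts, drawn at 0.03 CPM. In none of the 38 genes do the groups overlap, and the replicates of a group lie close together except near 0. These genes were picked on the same contrast, and the groups did not overlap in 62.02% of all genes tested either.

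Genes that were at or under 3 counts in every library of one group and over 10 in every library of the other were counted as switched. There were 28 switched on, of which 15 had at most 1 count in any vehicle library, and 20 switched off, of which 1 had at most 1 count in any R1881 library. TBX15, a T-box factor, had the second highest level among genes with a symbol that were switched on, after SLC38A4, at 9, 8.82 and 8.56 CPM and at least 31.2-fold higher. PGC, the gastric protease progastricsin that prostate also secretes, was at least 14.1-fold higher, NNT, a mitochondrial transhydrogenase, at least 13.1-fold, and the lncRNA LINC00836 at least 12.1-fold. Off went, besides ROR2, PTPRB, MATN2, GAB3 and PGM5, the fatty acid receptor FFAR2 (at least 7.42-fold lower), the sodium channel subunit SCNN1G (at least 6.51-fold) and CPB2-AS1 (at least 6.46-fold).

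Known androgen-induced genes rose almost throughout. From a list of such genes 58 were tested, 47 were called higher and 1 lower (81.03% and 1.72%, against 9.81% and 9.16% of all genes). The median log2 fold change was 2.22. The list was chosen with earlier results of these data known, and many of its genes are known from this same line. TMPRSS2, a membrane protease, had 15, 15 and 14.3 CPM with vehicle and 189.6, 199 and 188 CPM with R1881, a log2 fold change of 3.72 ± 0.06 (SE, FDR 1.57e-32). The member that fell was ACP3, prostatic acid phosphatase, which had 38.5, 41.4 and 38.9 CPM with vehicle and 16.2, 16.8 and 17.5 CPM with R1881 (log2 fold change -1.23 ± 0.07, FDR 8.60e-17). The summed level of the 58 genes was 4898 ± 11.3 CPM with vehicle and 13905 ± 110.4 CPM with R1881 (SD, n = 3).

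The 10 other members were not called, and 8 of them passed the FDR but not the fold limit. They include CAMKK2 (0.58), a kinase upstream of AMPK, just under the fold limit, the glucocorticoid-inducible SGK1 (0.51) and TSC22D3 (-0.25), and STEAP1 (0.34) and STEAP2 (-0.07). STEAP1 nevertheless had 253, 249 and 254 CPM with vehicle and 313, 319.7 and 325 CPM with R1881, with no overlap between groups, and of the 4 STEAP genes tested STEAP4 was the 1 called.

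Other kallikreins, serine proteases secreted into semen or found in skin, were also higher. KLK4, a protease that was already measurable without androgen, had 15.5, 12.1 and 14.7 CPM with vehicle and 147, 141 and 146 CPM with R1881 (log2 fold change 3.35 ± 0.06, FDR 9.11e-31), and KLK15 had 0.282, 0.565 and 0.37 CPM with vehicle and 2.48, 2.56 and 2.94 CPM with R1881 (log2 fold change 2.705 ± 0.33, FDR 1.87e-09). KLKP1, a pseudogene between them, had 0.188, 0.423 and 0.683 CPM with vehicle and 12.9, 13.6 and 12.4 CPM with R1881 (log2 fold change 4.59 ± 0.30, FDR 1.07e-18). KLK15, KLK3, KLK2, KLKP1 and KLK4 are adjacent among the genes tested on chromosome 19 and all 5 were called higher, with log2 fold changes from 2.705 to 7.47. Reads of these close relatives may have been shared out between them. KLK14 of the same cluster was tested and not called (-0.59).

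Promoters were searched for the letters of an androgen response element, on both strands, in 300-base windows from 250 bases before to 50 after each start in RefSeq (GRCh38.p14). The forms searched were AGAACA or GGTACA and, after a gap of 3 bases, TGTTCT, and the KLK3 form, AGAACA followed after 4 bases by GT, any base and CT. The KLK3 form is the one known from the KLK3 promoter, so its match there was fixed in advance and tests nothing. The forms that end in TGTTCT stood in 0 of the 10937 promoters of tested genes. Of 1137 promoters of genes called higher 1 held one of them (0.088%), that of KLK3, against 1 of 954 of genes called lower (0.105%) and 5 of 8846 of genes not called (0.0565%), and 38 of all 27305 promoters (0.139%). The arm AGAACA alone stood in 9.85% of promoters of genes called higher, 9.43% of those called lower and 8.42% of those not called. At least 10 of the 12 letters of the inverted repeat, best window of 15 bases, were found in 0.704%, 0.629% and 0.441%. A match is letters only, and these windows leave out enhancers.

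Of promoters of genes called higher 8 held such a 10-letter match, and 5 of these had AGAACA at its head, those of KLK3, LINC00844, LINC00836, TCAF2 and UCK2. The KLK3 promoter is shown as the 1 with a full form, and that of LINC00844 because this gene is among the 12 highest fold changes, with the matches 170 and 59 bases before the start. Both were picked after values were seen. Capitals mark the 15 bases of the match, and both sequences run on the plus strand, chr19:50854665-50854964 for KLK3 and chr10:58999268-58999567 for LINC00844.
KLK3: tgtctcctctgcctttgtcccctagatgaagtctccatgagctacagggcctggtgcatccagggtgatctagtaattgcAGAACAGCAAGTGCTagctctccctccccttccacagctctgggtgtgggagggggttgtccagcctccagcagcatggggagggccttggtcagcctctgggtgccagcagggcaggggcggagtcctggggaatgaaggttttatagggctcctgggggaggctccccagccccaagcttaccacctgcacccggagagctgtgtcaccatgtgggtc
LINC00844: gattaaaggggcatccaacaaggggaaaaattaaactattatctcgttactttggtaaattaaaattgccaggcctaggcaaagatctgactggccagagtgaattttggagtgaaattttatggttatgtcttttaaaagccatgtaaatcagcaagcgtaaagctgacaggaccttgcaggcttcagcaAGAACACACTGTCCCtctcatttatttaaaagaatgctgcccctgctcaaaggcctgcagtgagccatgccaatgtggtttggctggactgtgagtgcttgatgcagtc
KLK3 had 1.13, 1.48 and 1.71 CPM with vehicle and 107, 115 and 109 CPM with R1881, and LINC00844 0, 0.0706 and 0 CPM and 4.87, 4.76 and 4.06 CPM, so both were low without androgen.

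Genes known as androgen-repressed fell. Of 12 tested 10 were called lower and none higher (83.33% lower, against 9.16% of all genes), with a median of -1.98. UGT2B15, which conjugates androgens with glucuronic acid, had 485, 492 and 488 CPM with vehicle and 73.7, 74.3 and 77.9 CPM with R1881 (log2 fold change -2.697 ± 0.05, FDR 4.30e-29). DDC, which makes dopamine and serotonin, had 260.1, 258 and 261 CPM with vehicle and 50, 51.7 and 50.7 CPM with R1881 (log2 fold change -2.35 ± 0.05, FDR 1.53e-28), and CAMK2N1, an inhibitor of CaM kinase II, 52.8, 50.7 and 55 CPM with vehicle and 9.55, 10.2 and 11.9 CPM with R1881 (log2 fold change -2.33 ± 0.10, FDR 1.15e-20).

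Few genes of the machinery around the receptor were called. FKBP5, an HSP90 co-chaperone that is a standard androgen target, had 35.5, 40.9 and 40.4 CPM with vehicle and 503, 500.4 and 483 CPM with R1881 (log2 fold change 3.65 ± 0.05, FDR 5.72e-33). It was the 1 member called of 25 chaperones and co-chaperones tested (4.0% higher and 0.0% lower, against 9.81% and 9.16% of all genes). With no fold limit 16 of the 25 were higher and 2 lower at the FDR limit. The HSP90 genes HSP90AA1 and HSP90AB1 had log2 fold changes of 0.01 and -0.02. Among 38 coregulators 2 were called higher and 4 lower (5.26% higher and 10.53% lower against 9.81% and 9.16% of all genes). NRIP1, a receptor-interacting corepressor, rose by 0.60, a call lost under library totals and without R1881 replicate 3, and the Polycomb methylase EZH2 by 1.14. The corepressor TLE3 had 191, 181 and 189.9 CPM with vehicle and 67.9, 66.7 and 66.4 CPM with R1881 (log2 fold change -1.49 ± 0.04, FDR 2.75e-25). CTBP1, another corepressor, had 227, 223 and 231 CPM with vehicle and 98, 94.1 and 99 CPM with R1881 (log2 fold change -1.23 ± 0.04, FDR 1.13e-23), and NCOA7 fell by 1.25. CTBP1 overlaps CTBP1-AS, which was called higher (1.62), and reads of the pair cannot be assigned with certainty without the strand setting. The coactivator NCOA1 was not called (-0.23).

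Lineage transcription factors were called mostly in the upward direction. Of 28 tested 10 were called higher and 2 lower (35.71% and 7.14%, against 9.81% and 9.16% of all genes), and the median was 0.15. With no fold limit 14 of the 28 were higher and 10 lower at the FDR limit. The POZ and zinc finger factor ZBTB16 had 32.5, 34.2 and 33.5 CPM with vehicle and 141, 131 and 143 CPM with R1881 (log2 fold change 2.05 ± 0.04, FDR 1.09e-27), and KLF4, a differentiation factor, 1.78, 1.83 and 2.28 CPM with vehicle and 7.44, 8.29 and 6.57 CPM with R1881 (log2 fold change 1.84 ± 0.17, FDR 1.38e-11). The pioneer factor FOXA1 had 627, 601 and 627 CPM with vehicle and 459.8, 442 and 451 CPM with R1881 (log2 fold change -0.46 ± 0.03, FDR 1.36e-14) and HOXB13 463, 466 and 458 CPM with vehicle and 323, 319 and 321 CPM with R1881 (log2 fold change -0.53 ± 0.03, FDR 5.55e-16). Both lay lower in every R1881 library, under the fold limit. ELF3, an epithelial ETS factor, and TLE1 fell by 1.16 and 1.16.

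HOX genes, the homeobox factors of body axis patterning, fell or were not called. Of 15 tested 9 were called lower and none higher, with a median of -1.11. Those called lie in HOXA, HOXB and HOXC, and most were low, such as HOXA11 with 0.939, 1.2 and 1.25 CPM with vehicle and 0.367, 0.265 and 0.259 CPM with R1881 (log2 fold change -1.96 ± 0.51, FDR 2.44e-04) and HOXC10 with 3.29, 2.61 and 2.53 CPM with vehicle and 1.19, 0.882 and 0.951 CPM with R1881 (log2 fold change -1.42 ± 0.28, FDR 1.42e-05). Of the 9, HOXC13 had the highest vehicle level, with 31.6, 29.1 and 29 CPM with vehicle and 12.9, 13.2 and 11.5 CPM with R1881 (log2 fold change -1.24 ± 0.08, FDR 8.72e-16). HOXA6 was called at an FDR of 0.00379 and lost its call with the DESeq2 test and without R1881 replicate 1 or 2 or vehicle replicate 2 or 3. Nuclear receptors gave 2 higher and 4 lower of 31, in all near the 19.0% over all genes. RARB, a retinoic acid receptor, and NR4A1, an orphan receptor, rose by 1.98 and 1.31, whereas its relative NR4A2 fell by 2.36 on the log2 scale and PGR, the progesterone receptor, fell from 1.47 to 0.21 CPM.

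Of 22 genes of steroid synthesis, reduction and conjugation 9 were called lower and 2 higher (40.91% and 9.09%, against 9.16% and 9.81% of all genes). The median was -0.52. In number 6 of the 9 were UGT2B genes, the glucuronosyltransferases that clear androgens, led by UGT2B10 (log2 fold change -2.78 ± 0.11, FDR 9.07e-23) and UGT2B15 above, with UGT2B17 at 293, 322 and 309 CPM with vehicle and 77.4, 73.9 and 74.2 CPM with R1881 (log2 fold change -2.04 ± 0.04, FDR 4.96e-28). UGT2B28 was the UGT2B gene tested that was not called (-0.11). The UGT2B genes are close paralogs, so the split of reads between them is uncertain. AKR1C3, which makes testosterone from androstenedione, fell from 1.81 to 0.502 CPM (log2 fold change -1.92 ± 0.42, FDR 3.00e-05). CYP11A1, the enzyme of the first step of steroid synthesis, was at least 9.43-fold higher, reaching 2.39, 2.12 and 3.46 CPM. HSD17B11 was called (log2 fold change 0.60 ± 0.14, FDR 4.86e-04) although its groups overlapped, with 7.98, 6.28 and 5.29 CPM with vehicle and 8.63, 7.59 and 11.5 CPM with R1881, and it lost the call without vehicle replicate 3 or R1881 replicate 3, with DESeq2, under library totals, after thinning and in the test against a fold change of 1.5. The 5-alpha-reductase SRD5A1 was not called (0.34).

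Genes of cell division rose together. All 48 mitosis and G2/M genes tested were called higher, against 9.81% of all genes, with log2 fold changes from 0.77 (ECT2) to 3.39 (SPC25) and a median of 2.28. Their summed level was 346 ± 21.6 CPM with vehicle and 1491 ± 56.1 CPM with R1881 (SD, n = 3). CCNB1, cyclin B1, had 25.6, 28.8 and 28.8 CPM with vehicle and 70.3, 73.8 and 63.8 CPM with R1881 (log2 fold change 1.30 ± 0.06, FDR 1.75e-19). ANLN, which builds the cleavage furrow, had 4.04, 5.01 and 5.23 CPM with vehicle and 42.1, 43 and 42.6 CPM with R1881 (log2 fold change 3.10 ± 0.10, FDR 7.98e-24). TTK, the spindle checkpoint kinase, and SPC25, a kinetochore subunit, had log2 fold changes of 3.09 ± 0.18 (SE, FDR 2.25e-17) and 3.39 ± 0.28 (SE, FDR 3.82e-14).

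Of 54 genes of DNA replication and nucleotide synthesis 43 were called higher and none lower (79.63% higher, against 9.81% of all genes). Their median was 1.47, and their summed level was 2996 ± 36 CPM with vehicle and 5167 ± 111 CPM with R1881 (SD, n = 3). RRM2, the small subunit of ribonucleotide reductase, had 6.67, 9.24 and 8.02 CPM with vehicle and 116.3, 136 and 129 CPM with R1881 (log2 fold change 3.98 ± 0.10, FDR 2.22e-28). CDC6, which loads the replicative helicase, had 5.07, 5.72 and 5.46 CPM with vehicle and 80.2, 84.6 and 78.9 CPM with R1881 (log2 fold change 3.90 ± 0.11, FDR 2.52e-27), and MCM10 2.53, 2.89 and 2.42 CPM with vehicle and 36.9, 34.6 and 33.4 CPM with R1881 (log2 fold change 3.77 ± 0.13, FDR 8.04e-25). MCM2, a helicase subunit, had 41.3, 45.4 and 41.4 CPM with vehicle and 133, 144 and 139 CPM with R1881 (log2 fold change 1.71 ± 0.06, FDR 1.22e-22). Among the 11 not called were the purine synthesis enzymes GART (0.50) and PAICS (0.16) and the single-strand binding subunit RPA1 (0.19).

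Regulators of G1 were more mixed, with 15 higher and 2 lower of 32 (46.88% and 6.25%, against 9.81% and 9.16% of all genes). Among the E2F factors, which switch on S-phase genes or, as E2F7 and E2F8 do, hold them down, E2F7 had 0.845, 1.34 and 0.882 CPM with vehicle and 13.1, 12.1 and 13.3 CPM with R1881 (log2 fold change 3.69 ± 0.21, FDR 1.66e-18). The others that rose were E2F8 (log2 fold change 3.50 ± 0.25, FDR 4.94e-16), E2F2 (log2 fold change 3.14 ± 0.21, FDR 5.44e-16) and E2F1 (log2 fold change 2.98 ± 0.10, FDR 1.88e-23), while E2F4, E2F5 and E2F6 were not called (0.27 to 0.42). Cyclin D1, CCND1, had 199, 204 and 205 CPM with vehicle and 242, 242 and 239.5 CPM with R1881 and was under the fold limit (log2 fold change 0.25 ± 0.03, FDR 1.26e-07). The CDK inhibitor CDKN1A (p21) fell, with 88.5, 93.5 and 95.3 CPM with vehicle and 52.3, 50.5 and 44.9 CPM with R1881 (log2 fold change -0.92 ± 0.05, FDR 1.45e-16), and so did CDKN1C (log2 fold change -0.72 ± 0.14, FDR 2.64e-05), the latter not without R1881 replicate 3. CDKN1B (p27) was not called (log2 fold change -0.40 ± 0.05, FDR 9.48e-08). Of 27 replication-dependent histone genes, which package new DNA, 3 were called lower and none higher (11.11% lower, against 9.16% of all genes). These were H2BC18 (-1.19), H2AC13 (-1.10) and H2AC15 (-0.78), and the median of the list was -0.18. H2AC15 lost its call without vehicle replicate 3. Most messages of this class lack a poly(A) tail, and how that affects their counts here was not tested.

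**Figure D3:**
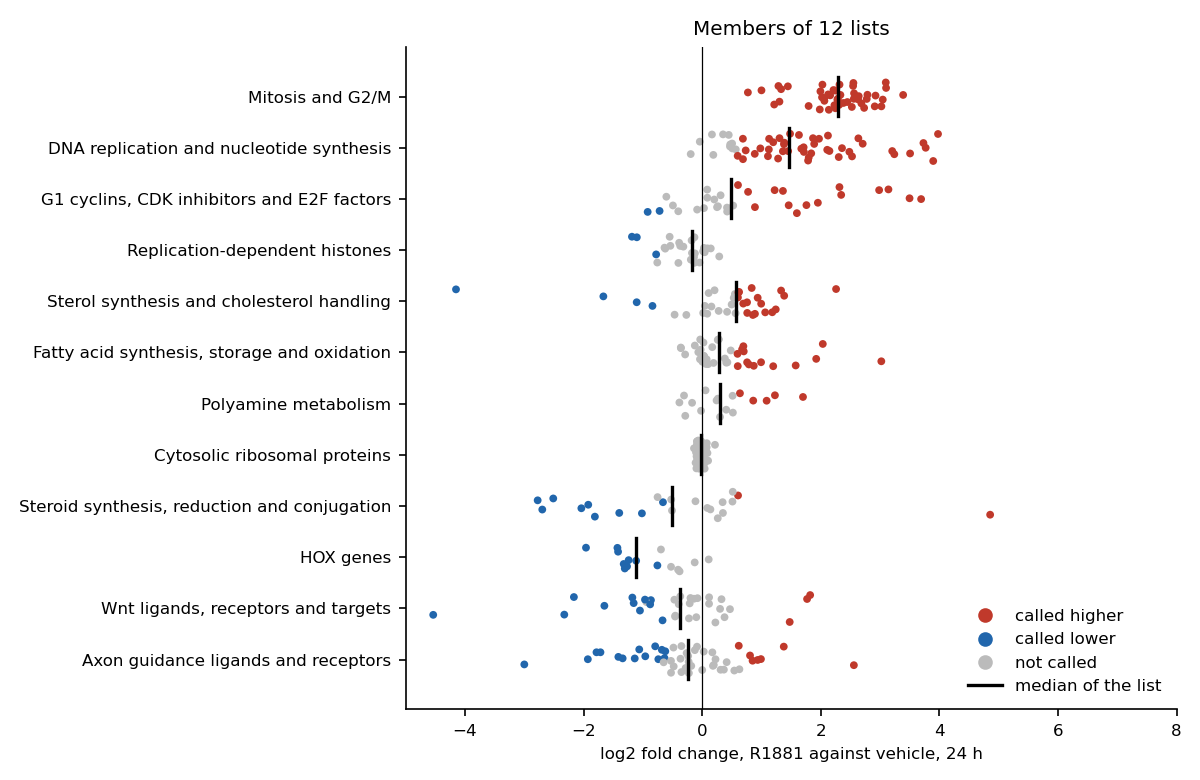
Log2 fold change of R1881 against vehicle at 24 h (horizontal axis) for each tested member of 12 lists, red where called higher, blue where called lower and grey where not called, with a black bar at the list median. Mitosis and replication genes lie almost wholly to the right, the cytosolic ribosomal proteins lie within 0.22 of 0, and all HOX genes but HOXC6 lie to the left.

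Several genes of cholesterol synthesis rose and both export pumps named here fell. Of 35 genes of sterol synthesis and handling 17 were called higher and 4 lower (48.57% and 11.43%, against 9.81% and 9.16% of all genes). Their median was 0.56, and their summed level was 3287 ± 67.4 CPM with vehicle and 6329 ± 12.2 CPM with R1881 (SD, n = 3). EBP, a sterol isomerase, had 19.1, 18.7 and 18 CPM with vehicle and 44.4, 49.1 and 45.1 CPM with R1881 (log2 fold change 1.33 ± 0.06, FDR 4.90e-19), and SOAT1, which esterifies cholesterol for storage, 41.3, 40.9 and 40.7 CPM with vehicle and 106, 108 and 105 CPM with R1881 (log2 fold change 1.38 ± 0.05, FDR 4.65e-22). The members that fell were the pumps ABCA1 and ABCG1, the latter with 64.2, 58.1 and 64 CPM with vehicle and 20.4, 19.9 and 18.6 CPM with R1881 (log2 fold change -1.67 ± 0.07, FDR 1.16e-20), INSIG2 (-1.10) and TM7SF2 (-0.84). INSIG1, the relative of INSIG2, rose by 1.06.

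Of 39 fatty acid genes 14 were called higher and none lower (35.9% higher, against 9.81% of all genes), with a median of 0.28. They include enzymes of chain elongation and activation. ELOVL7, an elongase, had 13.2, 15.1 and 15 CPM with vehicle and 119, 118 and 120.3 CPM with R1881 (log2 fold change 3.02 ± 0.06, FDR 1.50e-29), ACSL3, which activates fatty acids on lipid droplets, 124, 131 and 126 CPM with vehicle and 515, 523 and 523 CPM with R1881 (log2 fold change 2.03 ± 0.03, FDR 4.34e-30), and ELOVL5 185, 186 and 179 CPM with vehicle and 536, 549.5 and 549 CPM with R1881 (log2 fold change 1.58 ± 0.03, FDR 4.49e-28). FASN, the fatty acid synthase, was among the most abundant genes of all and had 1701, 1522 and 1609 CPM with vehicle and 2401, 2116 and 2228 CPM with R1881, without overlap but under the fold limit (log2 fold change 0.48 ± 0.04, FDR 7.87e-12). ACLY (0.42) and SCD (0.41) were likewise not called.

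Polyamine genes gave 5 higher and none lower of 17 (29.41% higher, against 9.81% of all genes). ODC1, which makes putrescine, had 320.1, 341 and 331 CPM with vehicle and 742, 829.8 and 749 CPM with R1881 (log2 fold change 1.23 ± 0.04, FDR 8.55e-22), and SMS, spermine synthase, 129.6, 138 and 131 CPM with vehicle and 418, 455 and 419 CPM with R1881 (log2 fold change 1.70 ± 0.04, FDR 1.47e-26). SAT1, which acetylates polyamines for breakdown, rose as well, from 70.1 to 148 CPM (log2 fold change 1.09 ± 0.05, FDR 1.71e-19). Amino acid transport and synthesis gave 13 higher and 3 lower of 43 (30.23% and 6.98%, against 9.81% and 9.16% of all genes). SLC43A1, a transporter of branched amino acids, rose from 14.3 to 45.9 CPM (log2 fold change 1.72 ± 0.08, FDR 2.23e-19) and the cystine transporter SLC7A11 from 34.9 to 72.4 CPM (log2 fold change 1.04 ± 0.06, FDR 9.14e-16). SLC7A5, a leucine transporter, fell from 5.29 to 2.28 CPM (log2 fold change -1.25 ± 0.18, FDR 1.78e-07), and GCLC, the first enzyme of glutathione synthesis, had 91.2, 95.8 and 97.4 CPM with vehicle and 38.7, 40 and 42.1 CPM with R1881 (log2 fold change -1.24 ± 0.05, FDR 2.21e-20). PSAT1 (0.16) of serine synthesis and PYCR1 (0.54) of proline synthesis were not called.

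Central carbon genes gave 8 higher and 2 lower of 56, in all near the 19.0% over all genes. SLC2A3, a glucose transporter, was at least 6.53-fold higher and reached 1.84 CPM, whereas HK2, hexokinase 2, rose from 40.4 to 73.1 CPM (log2 fold change 0.86 ± 0.05, FDR 6.70e-17) and IDH1, cytosolic isocitrate dehydrogenase, from 267 to 831 CPM (log2 fold change 1.64 ± 0.03, FDR 2.52e-28). PFKFB2, which raises the activator of phosphofructokinase, rose by 1.55, and ENO2, the neuronal enolase, fell by 0.98. Of 56 glycosylation genes 8 were called higher and 5 lower (14.29% higher and 8.93% lower against 9.81% and 9.16% of all genes). UAP1, which makes UDP-N-acetylglucosamine, rose from 85.2 to 269 CPM (log2 fold change 1.66 ± 0.04, FDR 9.01e-28), and members of the GALNT family, which start O-glycans, went both ways, GALNT7 up (1.10) and GALNT10 and GALNT3 down (-1.24 and -1.22).

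Few genes of ribosomes, proteasomes and nuclear-encoded mitochondrial proteins were called. Mitochondrially encoded genes were not analysed here. The edgeR test called 0 of 83 cytosolic ribosomal protein genes in either direction, with 3 of them under the FDR limit alone (1 higher, 2 lower), and their log2 fold changes ran from -0.14 to 0.22 with a median of -0.02. Nuclear respiratory chain genes gave 1 lower (NDUFB4, -0.66) and none higher of 77, mitochondrial ribosomal proteins 2 higher and none lower of 78, proteasome genes 3 higher and none lower of 45, and aminoacyl-tRNA synthetases 1 higher (FARSB, 0.61, lost under library totals) of 20. These shares lie under the 19.0% called over all genes. With the FDR limit but no fold limit, 26 proteasome genes were higher and 4 lower, and 13 synthetases were higher and 0 lower. Mitochondrial ribosomal proteins gave 30 and 4 and respiratory chain genes 15 and 2, against 4186 and 3524 of all 15963 genes. Ribosome biogenesis genes had 8 higher and none lower of 66 (12.12% higher, against 9.81% of all genes). A log2 fold change above 0 was found in 64 of the 66, against 7710 of all 15963 genes. TCOF1, a factor of RNA polymerase I transcription, led them (log2 fold change 1.44 ± 0.06, FDR 2.00e-19). In the secretory route 4 of 64 transport genes were called higher (6.25%), led by the cargo receptor LMAN1 (log2 fold change 0.83 ± 0.03, FDR 6.01e-20). With no fold limit 40 of the 64 were higher and 6 lower at the FDR limit. Of 38 genes of the unfolded protein response 5 were called higher and 1 lower (13.16% and 2.63%), and 24 and 2 with no fold limit. PDIA5, a disulfide isomerase, rose from 44.6 to 103 CPM (log2 fold change 1.21 ± 0.05, FDR 6.58e-21), and ERN1, the stress sensor IRE1, from 26 to 51.5 CPM (log2 fold change 1.03 ± 0.07, FDR 5.73e-15), whereas the chaperone HSPA5 was not called (-0.03) and DDIT3 fell by 0.92.

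**Figure D4:**
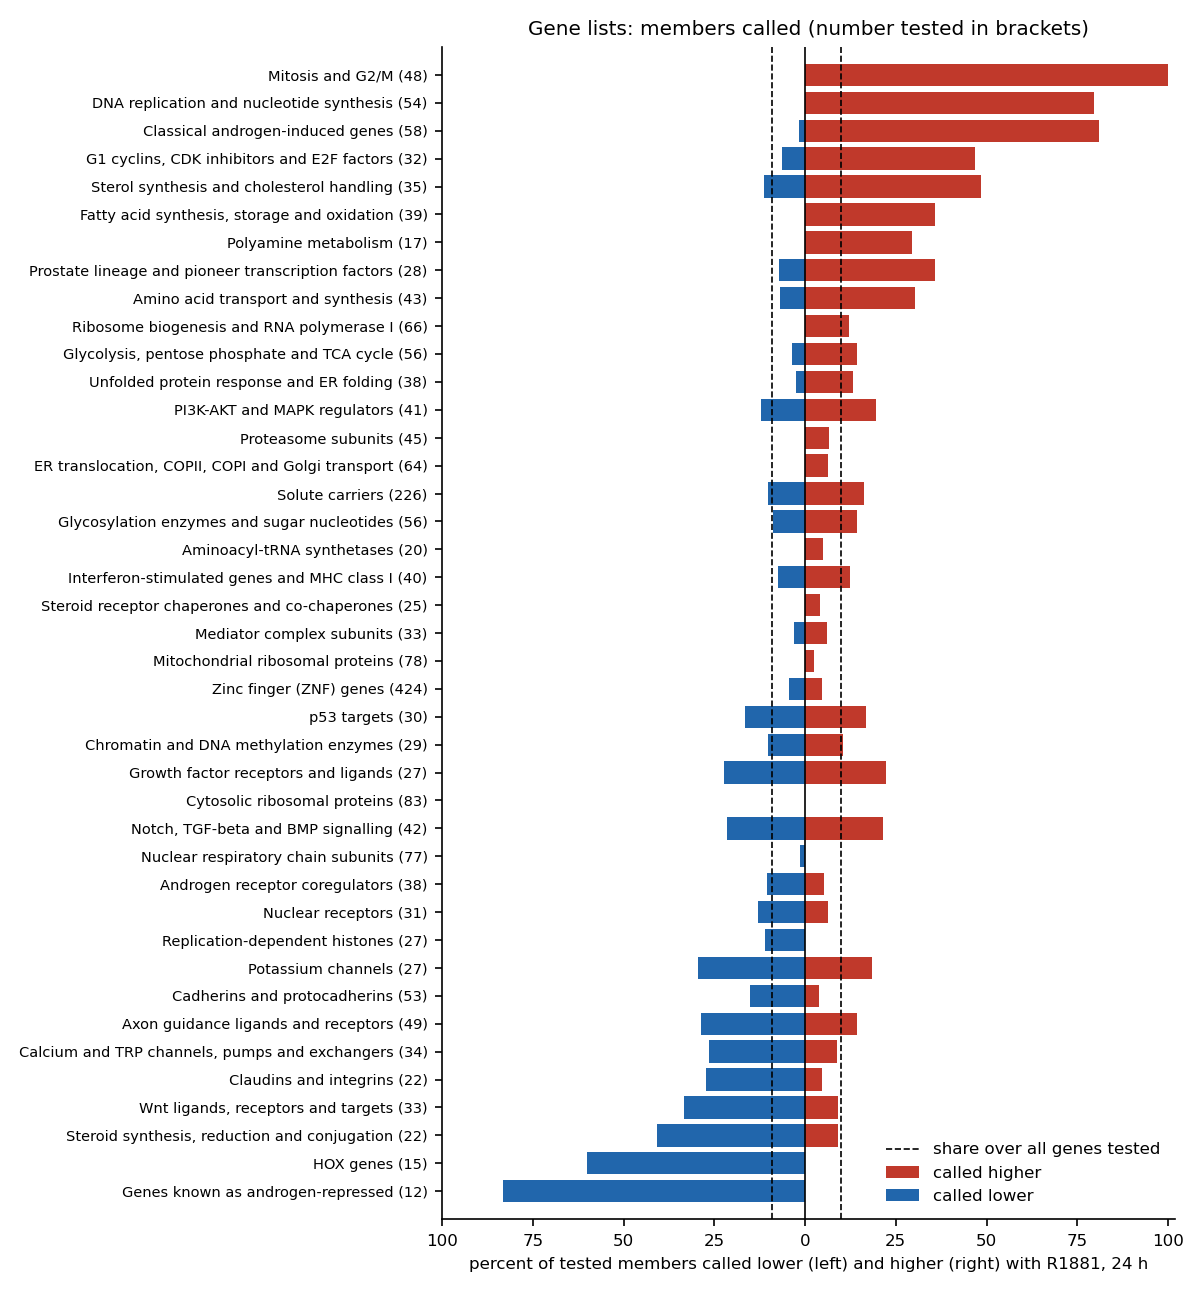
Percent of tested members called higher (red, right) and lower (blue, left) with R1881 at 24 h for 41 gene lists, each with its number tested, and dashed lines at the 9.81% and 9.16% of all genes. Mitosis, replication and classical androgen genes reach furthest right, androgen-repressed and HOX genes furthest left, and ribosomal and respiratory genes have bars of 0 or near 0.

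Of 27 growth factor receptors and ligands 6 were called higher and 6 lower (22.22% each way, against 9.81% and 9.16% of all genes). IGF1R, the receptor of IGF1, had 90.5, 96.2 and 94.9 CPM with vehicle and 439, 389 and 430.0 CPM with R1881 (log2 fold change 2.16 ± 0.04, FDR 4.43e-28), EGFR 52.5, 51.9 and 54.2 CPM with vehicle and 142, 118 and 139.7 CPM with R1881 (log2 fold change 1.33 ± 0.06, FDR 7.40e-20), and ERBB2, a member of the EGFR family, 372, 374 and 365 CPM with vehicle and 171, 189 and 176 CPM with R1881 (log2 fold change -1.05 ± 0.04, FDR 2.07e-21). ERBB4 fell by 1.98 and MET, the receptor of HGF, by 2.05, from vehicle levels of 3.41 and 2.15 CPM. Downstream, INPP4B, a phosphatase that removes PI3K products, had 2.63, 2.19 and 2.22 CPM with vehicle and 24.4, 21.3 and 22.3 CPM with R1881 (log2 fold change 3.30 ± 0.14, FDR 2.06e-21), and IRS2, an insulin receptor substrate, rose from 2.73 to 15.1 CPM (log2 fold change 2.51 ± 0.14, FDR 4.38e-17). SPRY4, a feedback inhibitor of MAPK signalling, had 6.67, 6.92 and 7.43 CPM with vehicle and 0.918, 0.706 and 0.519 CPM with R1881 (log2 fold change -3.31 ± 0.28, FDR 3.98e-15), and DUSP5, a phosphatase of ERK, fell by 1.54. In all 8 of 41 PI3K and MAPK regulators were called higher and 5 lower (19.51% higher and 12.2% lower against 9.81% and 9.16% of all genes).

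Of 33 Wnt ligands, receptors and targets 11 were called lower and 3 higher, against 9.16% and 9.81% of all genes, with a median of -0.37. Besides ROR2, the ligand WNT2B and the receptor FZD2 fell by 2.33 and 2.16, from vehicle levels of 1.33 and 2.06 CPM. The members that rose were WNT7B, with 21.7, 23.7 and 25.8 CPM with vehicle and 88.3, 88.7 and 81.3 CPM with R1881 (log2 fold change 1.82 ± 0.06, FDR 4.61e-22), and the receptors FZD5 (log2 fold change 1.47 ± 0.06, FDR 6.62e-20) and FZD8 (log2 fold change 1.77 ± 0.18, FDR 3.58e-10). AXIN2, the usual readout of beta-catenin, was not called (log2 fold change 0.32 ± 0.13, FDR 0.0288). In Notch, TGF-beta and BMP signalling 9 were higher and 9 lower of 42 (21.43% each way). HEY1, a Notch target, rose from 2.15 to 11.8 CPM (log2 fold change 2.43 ± 0.14, FDR 8.55e-17), PMEPA1, an inhibitor of TGF-beta signalling, from 47.5 to 209.9 CPM (log2 fold change 2.14 ± 0.04, FDR 6.97e-29), and the BMP receptor BMPR1B by 1.96. The ligands BMP6 and GDF15 fell by 1.41 and 1.27 and the transducer SMAD3 by 1.14.

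The lists of guidance, adhesion and channel genes held more genes called lower than higher. Of 49 axon guidance genes 14 were called lower and 7 higher (28.57% and 14.29%), and of 53 cadherins and protocadherins 8 and 2 (15.09% and 3.77%). The counts were 6 and 1 of 22 claudins and integrins (27.27% and 4.55%) and 8 and 5 of 27 potassium channels (29.63% and 18.52%). They were 9 and 3 of 34 calcium and TRP channel and pump genes (26.47% and 8.82%). Over all genes 9.16% were called lower and 9.81% higher. The summed level of the potassium channels was 329 CPM with vehicle and 676 CPM with R1881. Calls of lower genes were also more frequent among low-level genes at large, at 15.3% and 15.9% in the 2 lowest level bins. The part of level in these lists was not tested. SEMA3C, a secreted semaphorin, rose from 49.5 to 129 CPM (log2 fold change 1.38 ± 0.05, FDR 5.29e-21), whereas SLIT1, a repellent ligand, had 11, 12.1 and 12.3 CPM with vehicle and 3.95, 4.68 and 4.84 CPM with R1881 (log2 fold change -1.41 ± 0.14, FDR 4.42e-11). ITGB4, the integrin of hemidesmosomes, had 8.82, 10.8 and 11.1 CPM with vehicle and 4.59, 3.35 and 3.03 CPM with R1881 (log2 fold change -1.53 ± 0.16, FDR 8.04e-11). CDH26, a cadherin, fell by 3.08 on the log2 scale, and FAT4 was at least 3.82-fold lower. The potassium channel genes KCNMA1 and KCNN2, both opened by calcium, rose instead, KCNMA1 with 89.8, 90.9 and 93.3 CPM with vehicle and 376, 344 and 369 CPM with R1881 (log2 fold change 1.98 ± 0.04, FDR 4.41e-29) and KCNN2 with 28.2, 29 and 29.5 CPM with vehicle and 153, 150.2 and 146 CPM with R1881 (log2 fold change 2.36 ± 0.04, FDR 1.66e-29). ATP2B1, a calcium pump of the plasma membrane, had 333, 322 and 325 CPM with vehicle and 127, 117 and 123 CPM with R1881 (log2 fold change -1.41 ± 0.04, FDR 1.92e-23).

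Of 226 solute carriers 37 were called higher and 23 lower (16.37% and 10.18%, against 9.81% and 9.16% of all genes). SLC44A1, a choline transporter, had 483, 489 and 470.1 CPM with vehicle and 128, 127 and 131 CPM with R1881 (log2 fold change -1.90 ± 0.04, FDR 1.43e-27). It lies beside ABCA1 and the NIPSNAP3 genes on chromosome 9, and NIPSNAP3A, NIPSNAP3B, ABCA1, SLC44A1 and FSD1L were all called lower, with log2 fold changes from -4.15 to -1.07. SLC30A4, a zinc exporter, fell from 917 to 582 CPM (log2 fold change -0.66 ± 0.03, FDR 4.78e-18), while the zinc importers SLC39A6 and SLC39A10 rose by 0.76 and 0.69. Of 424 zinc finger genes with ZNF symbols 20 were called higher and 19 lower (4.72% higher and 4.48% lower against 9.81% and 9.16% of all genes). The extremes among those called were ZNF703 (log2 fold change -2.02 ± 0.08, FDR 1.38e-21) and ZNF367 (log2 fold change 4.25 ± 0.15, FDR 2.16e-25).

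Runs of at least 4 neighbouring tested genes called the same way numbered 24 upward, with 117 genes, and 20 downward, with 97 genes. The longest held 11 genes on chromosome 2, from 130191743 to 130718831 (GRCh38), and included TUBA3E, POTEI and POTEJ, which belong to families of near-identical copies. Among the others were the TRG locus on chromosome 7, where TRGC1 and TRGV9 rose together, and the HOXC run with HOXC13, HOXC12 and HOXC10. How many such runs unrelated genes would give was not tested, and overlapping or copied genes may share reads.

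Of other groups, the Mediator complex, which links transcription factors to RNA polymerase II, gave 3 of 33. That is 6.06% higher and 3.03% lower, against 9.81% and 9.16% of all genes. CDK8, the kinase of the Mediator kinase module and, with its paralog CDK19, the target of the inhibitors used elsewhere in the series, had 51.8, 46.2 and 50.6 CPM with vehicle and 22.9, 22.7 and 25.4 CPM with R1881 (log2 fold change -1.07 ± 0.07, FDR 2.75e-15). CDK19 had 301, 296 and 304 CPM with vehicle and 418, 403 and 422 CPM with R1881 and was under the fold limit (log2 fold change 0.46 ± 0.03, FDR 4.04e-14). The subunits MED30 and MED12L rose by 0.97 and 1.07. Of 30 p53 targets 5 rose and 5 fell (16.67% each way), with the death gene PMAIP1 up from 4 to 14.8 CPM (log2 fold change 1.90 ± 0.11, FDR 3.86e-16). TP53INP1, a stress-induced regulator of autophagy, fell, with 386, 380.2 and 382 CPM with vehicle and 209, 199.6 and 208 CPM with R1881 (log2 fold change -0.90 ± 0.03, FDR 2.35e-21). BMF, a pro-apoptotic BCL2 relative, had 64.3, 65.1 and 61.9 CPM with vehicle and 19.5, 18.3 and 19.1 CPM with R1881 (log2 fold change -1.74 ± 0.06, FDR 1.87e-22). In the autophagy and lysosome list ATG3, the enzyme that attaches LC3 to lipid, was 1 of 2 members called of 47 (2.13% each way). ATG3 had 337, 346 and 340.1 CPM with vehicle and 95.5, 98.5 and 99.7 CPM with R1881 (log2 fold change -1.80 ± 0.04, FDR 1.25e-26). PER1, a repressor of the circadian clock, rose from 11.2 to 34.7 CPM (log2 fold change 1.61 ± 0.09, FDR 3.67e-17). Clock genes gave 3 higher and 1 lower of 20, in all near the 19.0% over all genes. Interferon-stimulated genes gave 5 higher and 3 lower of 40, in all near the 19.0% over all genes, with ISG15 not called (-0.30).

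KRT19, a simple epithelial keratin, had 0.376, 0.565 and 0.455 CPM with vehicle and 9.83, 10.9 and 10 CPM with R1881 (log2 fold change 4.43 ± 0.27, FDR 2.91e-19), and KRT80 fell from 3.42 to 0.77 CPM (log2 fold change -2.16 ± 0.29, FDR 3.66e-09), the 2 members called of 5 keratins tested. Of 26 ABC transporters 4 rose and 4 fell (15.38% each way, against 9.81% and 9.16% of all genes). Next to ABCC4, ABCA1 and ABCG1, the drug efflux pump ABCG2 fell from 2.84 to 0.532 CPM (log2 fold change -2.41 ± 0.42, FDR 3.24e-07) and ABCC1, another drug pump, rose from 125 to 236 CPM (log2 fold change 0.91 ± 0.04, FDR 6.08e-20). Of 16 lncRNAs known from prostate cancer 6 rose and 2 fell (37.5% and 12.5%). POTEF-AS1 was at least 6.11-fold higher, and PART1 rose from 2.69 to 7.39 CPM (log2 fold change 1.53 ± 0.17, FDR 1.05e-09), while DRAIC fell from 12.1 to 6.96 CPM (log2 fold change -0.78 ± 0.12, FDR 7.57e-07). Among surface proteins known from prostate cancer TMEFF2, a transmembrane protein with a follistatin-like part, had 22.3, 23.2 and 25.4 CPM with vehicle and 94, 105 and 99 CPM with R1881 (log2 fold change 2.04 ± 0.06, FDR 2.84e-24), opposite in direction to FOLH1. Nitric oxide receptor subunits rose, GUCY1A1 from 148 to 295 CPM (log2 fold change 1.00 ± 0.03, FDR 2.27e-22), and with them PDE9A, a phosphodiesterase of cyclic GMP, from 45.8 to 101 CPM (log2 fold change 1.15 ± 0.05, FDR 9.44e-20), while the adenylate cyclases ADCY7 and ADCY1 fell by 1.44 and 0.95. MICAL1, which oxidises actin, rose from 46.7 to 333 CPM (log2 fold change 2.84 ± 0.05, FDR 1.23e-29), 1 of 4 called higher and 2 lower of 28 actin and SRF genes (14.29% and 7.14%).

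The nearest other measurement is the experiment of 72 h with R1881 at 1 nM, where time, dose and experiment differ at once and cannot be told apart. In a fit of all 28 libraries the androgen effect at 72 h differed from that at 24 h for 315 of 16685 genes (1.89%). Of the genes called at 24 h 258 differed, and their effect was smaller at 72 h in 189, larger in 52 and of opposite sign in 17.

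Many of the smaller effects were in cell division genes. Of the 48 mitosis genes 38 were called for a lower effect at 72 h and none for a higher one, and of the 54 replication genes 23 and 0, against 221 and 91 of the 15963 genes tested at 24 h. The effect on CDC6 was 3.90 at 24 h and 1.90 at 72 h, a difference of -1.997 ± 0.11 (SE, FDR 2.29e-18). That on DTL, which controls re-licensing of replication, differed by -1.98 ± 0.16 (SE, FDR 1.25e-13), and that on NEIL3, a glycosylase of DNA repair, by -2.41 ± 0.36 (SE, FDR 1.39e-07). The vehicle groups differed here. The summed level of the mitosis genes with vehicle was 350.0 CPM at 24 h and 920.3 CPM at 72 h, and with R1881 1509.8 and 2476.7 CPM in the same fit, so that with R1881 the summed level was the higher at 72 h while the ratio was smaller.

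Some genes had larger effects at 72 h. The difference was 1.91 ± 0.39 (SE, FDR 1.68e-04) for CSGALNACT1, an enzyme of chondroitin synthesis, and 1.72 ± 0.36 (SE, FDR 3.96e-04) for ELOVL2, an elongase of polyunsaturated fatty acids. CAMK2N1, lower at 24 h, was further down at 72 h, with a difference of -1.11 ± 0.21 (SE, FDR 6.14e-05). ACP3, which fell at 24 h, fell further, to a log2 fold change of -1.83. GCLC, called lower at 24 h, was at -0.20 at 72 h, where its vehicle level was 42.4 CPM against 94.8 CPM at 24 h. SEMA3C, called higher at 24 h, was at 0.21. The 17 of opposite sign include the transporter SLC6A19 (-0.94 at 24 h and 1.35 at 72 h). The vehicle level of SLC6A19 was 11 CPM at 24 h and 1.11 CPM at 72 h. Also among them is EBF2, a factor of the early B-cell family (-2.16 and 0.23), whose effect at 72 h was not called (FDR 0.265). Others lay near 0 at 72 h, such as STBD1 (0.03), ATOH8 (0.04) and CDKN1C (0.07), so an opposite sign need not be a reversal.

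**Figure D5:**
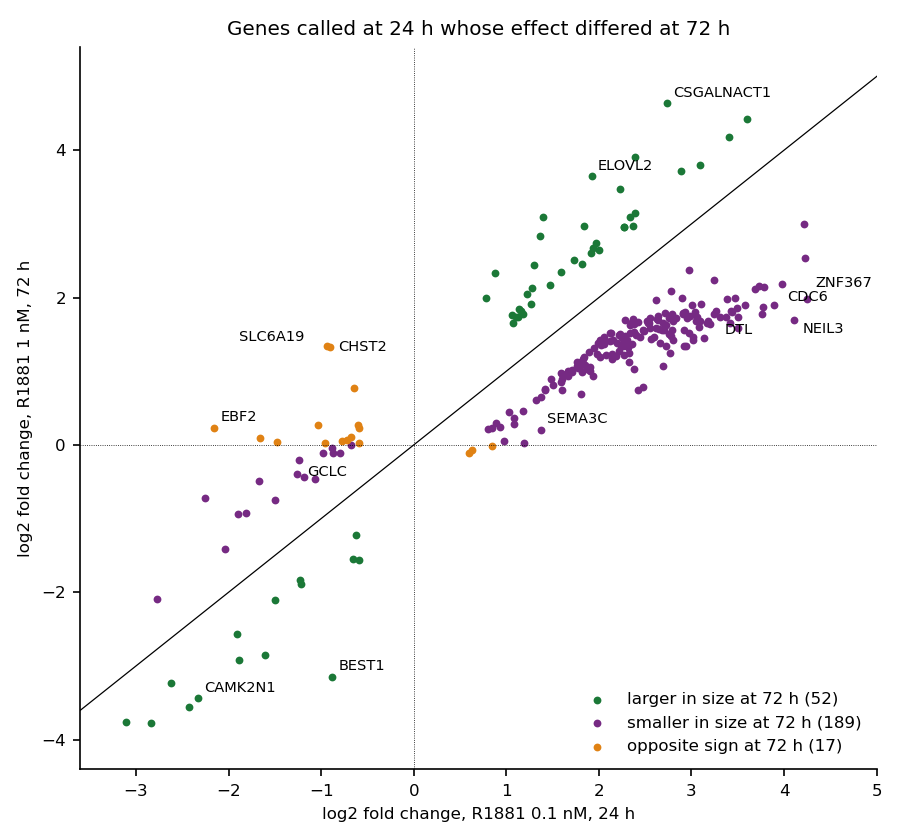
Log2 fold change with R1881 1 nM at 72 h (vertical axis) against that with R1881 0.1 nM at 24 h (horizontal axis) for the 258 genes called at 24 h whose effect differed between the experiments, with the line of equality. Purple points (189) lie nearer to 0 at 72 h than at 24 h, green points (52) farther from 0, and orange points (17) on the other side of 0.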

How the data were processed

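The authors made RNA-seq libraries with a directional kit and deposited 1 table of estimated counts for 61817 entries, per the file headers, of which 16.9% of values above 0 held a fraction. The labels name FastQC, cutadapt 2.8, STAR 2.7.2b, featureCounts (Subread 2.0.3) and the builds GRCh38.p13 and GRCm39 without saying which did what. The strand setting and annotation are not given in the sources used here, so overlapping, antisense and near-identical genes are uncertain. Estimated counts were rounded, and 2 entries that are no human genes, both at 0, were left out. Genes passed filterByExpr (minimum count 10, minimum total 15), libraries were scaled by TMM, and the 12 libraries of the 24 h experiment, inhibitor groups included, shared 1 fit in edgeR 4.0.16 (quasi-likelihood, R 4.3.3). Calls needed more than a 1.5-fold change at an FDR below 0.01, the limits of the study. The difference between experiments came from a fit of all 28 libraries. Coordinates and exon lengths were taken from GENCODE 29 (GRCh38) and promoters from RefSeq. On simulated counts the test called 92% of 2-fold and 98% of 3-fold changed genes in this comparison of 15603 genes. The changed genes were drawn only from those above 1 CPM with vehicle, so these shares do not cover genes of lower level. A group at or under 3 counts in every library gave a fold bound against 3 counts in its shallowest library, 0.282 CPM for vehicle and 0.276 CPM for R1881, which covers counting error only. Members, lists and named genes were chosen with earlier results of these data known. Named were the 12 highest and lowest fold changes (leaving out KLK2, KLK3 and CHRNA2), the 8 largest gains and losses, up to 8 genes switched on and off, the 5 highest and lowest differences between experiments, and in each list the first gene and the 3 highest and lowest called, all but the switched and level-based choices at 1 CPM or more in the higher group. Some genes that this rule selects are not reported here. Other genes in the text, such as KLK4, KLK15, KLKP1, KLK14, E2F1, HOXC13, TCAF2, UCK2 and the members given as not called, were chosen after their values were seen. Alternatives covered scaling, test, filter, limits, samples, depth and left-out libraries.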

Additional observations from a re-analysis of the deposited data

Results flagged for a closer look

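The androgen effect, the log2 fold change of R1881 against vehicle, differed between the 2 experiments for 315 genes by the test of the difference in 1 fit, and values below are the effect with 1 nM at 72 h minus that with 0.1 nM at 24 h, so time, dose and experiment cannot be told apart. Genes of DNA replication and repair were CDC6 (-1.997), DTL (-1.98), MCM10 (-1.90), RRM2 (-1.79), MCM2 (-0.73) and NEIL3 (-2.41). The E2F factors were E2F1 (-1.23), E2F2 (-1.70), E2F7 (-1.57) and E2F8 (-1.64), and the mitosis genes SPC25 (-1.42), TTK (-1.41) and ANLN (-1.19). Of genes called higher or, as SGK1, not called at 24 h, KLF4 (1.14), ODC1 (0.82), SGK1 (1.33), ELOVL2 (1.73) and CSGALNACT1 (1.91) had positive differences. The UGT2B genes UGT2B10 (0.69), UGT2B17 (0.62) and UGT2B28 (0.72), all lower or not called at 24 h, also had positive differences, and so did the signalling genes WNT7B (0.64) and FZD5 (0.69). The genes CAMK2N1 (-1.11) and ACP3 (-0.60), called lower at 24 h, had negative differences. Positive differences in genes called lower at 24 h were GCLC (1.04), CDKN1C (0.78), SLC6A19 (2.29) and EBF2 (2.39). Others named above were ZNF367 (-2.27), SEMA3C (-1.17), POTEI (-0.91) and PMAIP1 (-0.85).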

How the results depend on the processing

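A level of 3 counts stood at 0.282 CPM in the shallowest vehicle library and 0.276 CPM in the shallowest R1881 library, so lower levels were not resolved. Without vehicle replicate 3, the deepest library, 2852 genes were called in place of 3028. The replicate numbers do not pair the libraries (correlations of same-numbered deviations 0.0236, 0.0331 and -0.0124), and fits with a replicate block called 3028 genes, 1562 higher and 1466 lower, 578 list members and 322 differences between experiments; the block cost none of the genes named here its call. Other scalings, filters, sample choices and thinning to the smallest total gave between 2839 and 3291 calls, and the DESeq2 Wald test 2762. Library totals moved the split to 1357 higher and 1812 lower. An FDR under 0.05 with no fold limit gave 9317 calls, 4811 higher and 4506 lower, 1617 list members in place of 577 and 2222 differences between experiments in place of 315. A test against a fold change of 1.5, read at an FDR under 0.05 in place of 0.01, left 2019 calls, 1189 higher and 830 lower. Leaving out 1 library gave 2852 to 2999 calls, 1559 to 1597 higher, 1293 to 1403 lower, 564 to 577 list members and 270 to 327 differences. The summed level of called genes is the result that moves with the set of calls: without 1 library it was 52335 to 53805 CPM with vehicle and 113806 to 116419 CPM with R1881 for genes called higher, and 53413 to 56007 and 26840 to 27907 CPM for genes called lower; with library totals the first 3 of these sums were 54217, 112073 and 57976 CPM. At most 1 count in the low group left 15 genes switched on and 1 switched off. The promoter share of 0.088% was 9.85% for the AGAACA arm alone and 0.704% for 10 of 12 letters, an alternative chosen after seeing the data. Of the 208 called genes named, 12 lost the call under the test against a fold change of 1.5 (FDR under 0.05), 4 under library totals and 2 with DESeq2, and none changed sign. Members not called crossed 0: CDH1 was -0.017 and HSP90AA1 -0.073 under library totals and -0.001 without a filter, and without 1 library HSP90AA1 ranged from -0.005 to 0.037, HSP90AB1 from -0.031 to 0.005, HSPA5 from -0.051 to 0.001, PDGFRB from -0.048 to 0.474 and UGT2B28 from -0.172 to 0.008. The causes of these shifts were not tested.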
